A study of Mus musculus with 12 samples.

Results

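The genes described here are 34 members of the ATF4 programme and of cellular amino acid supply, chosen by gene symbol from a list that covers the integrated stress response, serine and proline synthesis and amino acid transport. They were chosen with earlier results of these data known. Counts of members beside the share of all genes therefore describe the list and do not test it. The symbols matched 35 of the 22063 rows of the expression table, because Ddit3 has 2 rows. The second Ddit3 row held 0 to 4 reads per library and was not tested, so that 34 rows, one for each member, were among the 13670 that passed the filter on low counts.

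RNA was sequenced from mesenchymal cells grown out of the mandibular condyle, the joint end of the lower jaw bone, of neonatal mice that all carried the Plagl1 fl/fl alleles. The study compared 4 groups of 3 libraries each. OI-AdV-CRE-EGFP cells had received the HBAD-CRE-EGFP adenovirus, which delivers Cre recombinase and EGFP, followed by 4 days of osteogenic induction (OI) with 5 mM β-glycerophosphate, 50 µg/ml ascorbic acid and 100 nM dexamethasone. OI-AdV-EGFP cells had received the control virus HBAD-EGFP and the same induction. AdV-CRE-EGFP and AdV-EGFP cells had received the same pair of viruses and were collected on day 0, without induction. Both viruses were used at a multiplicity of infection of 100. No group was cultured for 4 days without osteogenic medium, so induction cannot be told apart from 4 more days in culture, and dexamethasone cannot be told apart from the other additives. No cells without floxed alleles received the Cre virus, so deletion of Plagl1 cannot be told apart from Cre itself. Whether replicate libraries stem from different animals or cultures is not in the labels, and all p-values therefore rest on a library-to-library spread that may be only technical.

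The libraries held between 15316989 and 18052040 assigned reads, and the 10 most abundant genes took between 7.16% and 9.18% of them. All 8 mesenchymal cell markers were detected in each group, with summed levels between 16790 and 21090 CPM, a count scaled to library size. Plagl1, the floxed gene, was at 382, 404 and 368 CPM in libraries with the OI-AdV-CRE-EGFP label, against 402, 393 and 379.5 CPM in OI-AdV-EGFP. It was at 581, 593 and 591 CPM in libraries with the AdV-CRE-EGFP label, against 386, 426 and 390.2 CPM in AdV-EGFP. The Plagl1 RNA level was thus not lower in the Cre libraries (log2 fold change -0.03, edgeR adjusted p = 0.671 after induction; 0.55, adjusted p = 1.76e-10 before it). Counts over the whole gene include exons outside any deleted part and do not measure excision. For condyle mesenchymal cells given the Cre virus, the study reports reduced PLAGL1 protein by Western blot. The OI-AdV-EGFP library with replicate number 2 was the lowest of its group in the osteoblast markers. Their 7 genes summed to 149.6 CPM there and to 355.5 and 379 CPM in replicates 1 and 3. The sums ranged from 56.0 to 112.9 CPM in AdV-EGFP, 57.2 to 96.3 CPM in AdV-CRE-EGFP and 39.1 to 43.5 CPM in OI-AdV-CRE-EGFP.

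ATF4 is a transcription factor whose mRNA is translated more when stress kinases phosphorylate the translation factor eIF2, as GCN2 does when an amino acid runs short and PERK does when unfolded protein builds up in the endoplasmic reticulum. With partners of the C/EBP family it binds composite C/EBP-ATF elements and switches on genes that make, import and charge amino acids. In osteoblasts ATF4 is known to be needed for late differentiation and for the amino acid supply that collagen production draws on.

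The promoters of several members carry the element through which ATF4 acts, and those of members called in the comparisons that follow are shown. RefSeq promoter windows of 300 bases, 250 before and 50 after a transcript start, were at hand for 28 of the 34 members. The C/EBP-ATF core TGATGCAA, searched on both strands, was present in 6 of those 28 members (21.4%), against 279 of all 27025 genes with a window (1.03%). The looser form TGATGNAA, which contains the first, was present in 8 of 28 members (28.6%), against 1219 of 27025 genes (4.51%). The members were chosen partly as known ATF4 targets, so these shares describe the list and are no test of it. The stretches below come from the 6 members that hold either form and were called in at least 1 comparison, read 5′ to 3′ along the gene's own strand, with the element in capitals.
Atf3: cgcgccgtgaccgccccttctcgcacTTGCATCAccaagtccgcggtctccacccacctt
Chac1: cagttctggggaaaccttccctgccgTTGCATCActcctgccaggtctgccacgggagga
Nupr1: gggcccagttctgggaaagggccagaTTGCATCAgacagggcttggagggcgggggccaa
Slc7a11: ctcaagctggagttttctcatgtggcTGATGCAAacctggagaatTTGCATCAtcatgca
Asns: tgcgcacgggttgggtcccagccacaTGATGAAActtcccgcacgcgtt
Trib3: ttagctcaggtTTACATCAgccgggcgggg
Slc7a11, which encodes the cystine importer xCT, was the member with a pair of elements, lying 66 to 59 and 47 to 40 bases before the start. The elements of Atf3 and Nupr1 both lay 110 to 103 bases before their starts, that of Chac1 193 to 186 bases before and that of Asns 23 to 16 bases before, while that of Trib3 lay 15 to 22 bases after its start. On GRCm39 the stretches lie at chr1:190915607-190915666 on the minus strand (Atf3), chr2:119181504-119181563 on the plus strand (Chac1), chr7:126224719-126224778 on the minus strand (Nupr1), chr3:50398095-50398154 on the minus strand (Slc7a11), chr6:7693210-7693258 on the minus strand (Asns) and chr2:152185948-152185977 on the minus strand (Trib3). Pycr1 and Slc1a4 also held TGATGCAA in their windows but were not called in any of the 4 comparisons between groups. A match of letters is a description of the window and says nothing of binding in these cells.

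Together the 34 members took 0.214%, 0.207% and 0.21% of the counts in OI-AdV-CRE-EGFP and 0.197%, 0.198% and 0.201% in OI-AdV-EGFP. On day 0 they took 0.254%, 0.248% and 0.25% of the counts in AdV-CRE-EGFP and 0.283%, 0.286% and 0.286% in AdV-EGFP. The share was thus below its day-0 level in every induced library, although Glul, the most abundant member there, rose. Without Glul the share was 0.163%, 0.157% and 0.162% in OI-AdV-CRE-EGFP and 0.148%, 0.146% and 0.148% in OI-AdV-EGFP, against 0.247%, 0.241% and 0.244% in AdV-CRE-EGFP and 0.277%, 0.28% and 0.28% in AdV-EGFP. Per length of transcript, on the deposited FPKM scale, the most abundant members in OI-AdV-EGFP were Glul, with a mean of 209.7 FPKM, Nupr1 (94.7), Slc3a2 (66.8), Atf4 (65.4) and Phgdh (63.9).

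**Figure D1:**
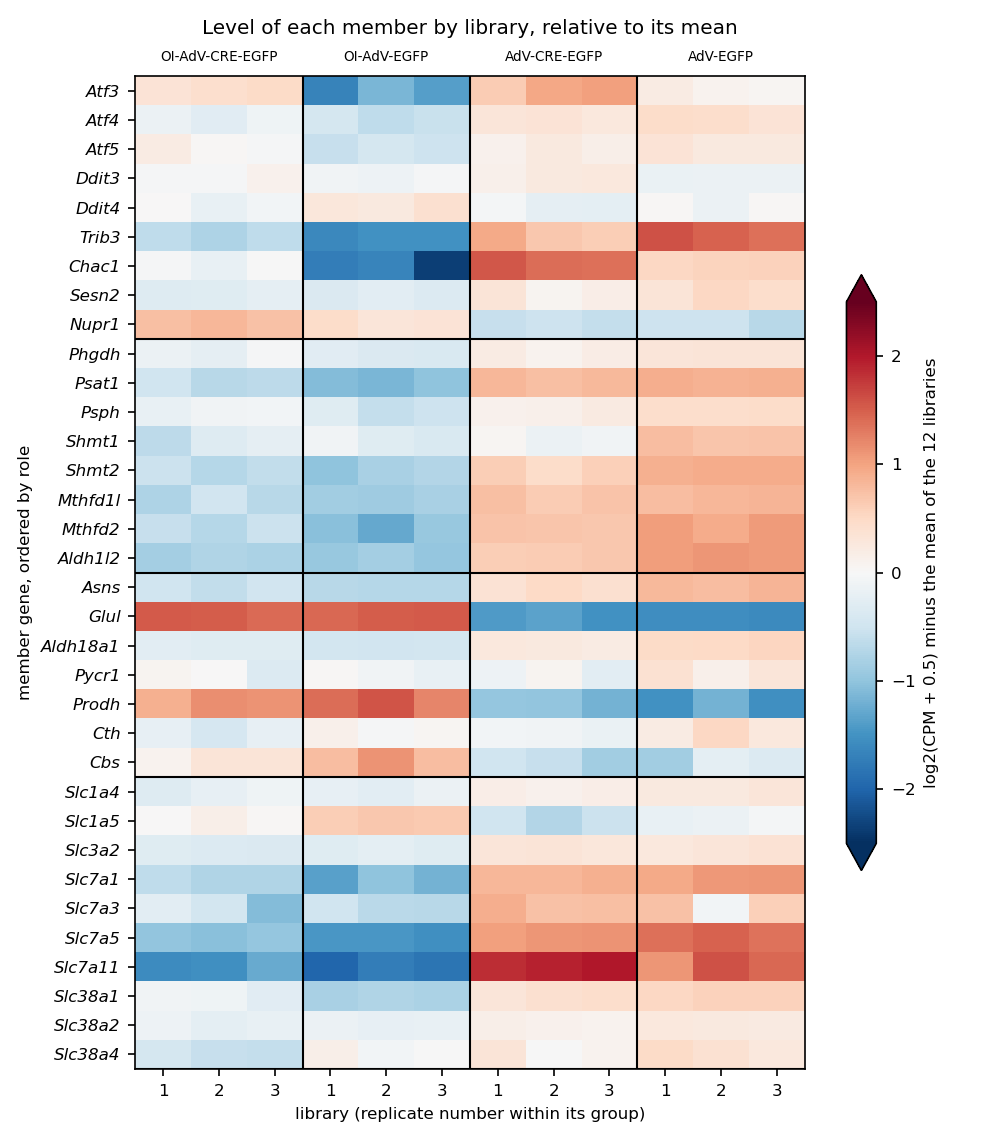
Level of each of the 34 members (rows, by role: stress regulators, serine and one-carbon enzymes, other enzymes, transporters) in each of the 12 libraries (columns, by group), as log2(CPM + 0.5) minus the member's mean over the libraries; colours saturate at -2.5 and 2.5. Most rows are red (above the mean) in the 6 day-0 libraries and blue (below it) in the 6 induced ones, while Glul, Prodh, Cbs, Slc1a5 and Nupr1 run the other way.

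Osteogenic induction was compared first, OI-AdV-CRE-EGFP against AdV-CRE-EGFP and, separately, OI-AdV-EGFP against AdV-EGFP. A gene was called when its Benjamini-Hochberg adjusted p over all 13670 genes was under 0.05 and its change at least 2-fold, and "rose" and "fell" are kept for called genes. In the Cre-virus cells 11 members fell and 4 rose, and in the control-virus cells 15 fell and 3 rose. Of all genes tested, 8.62% were called lower and 12% higher in the Cre-virus cells, and 10.8% lower and 15.1% higher in the control-virus cells. The median change of the members was -0.48 in the Cre-virus cells and -0.95 in the control-virus cells (log2), where the median of all genes was 0.02 and 0.05. By the adjusted p alone, 25 members were lower and 5 higher in the Cre-virus cells, beside 35.3% and 35.9% of all genes, and 27 were lower and 6 higher in the control-virus cells, beside 36.5% and 39.7%. In bulk RNA, fewer cells that express a gene and less of its RNA per cell cannot be told apart.

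Among the 9 stress response regulators, Trib3 and Chac1 fell with induction under both viruses and Atf3 under the control virus. Trib3, a pseudokinase that restrains ATF4 and AKT signalling, was at 3.62, 3.27 and 3.64 CPM in OI-AdV-CRE-EGFP, against 11.9, 9.69 and 9.38 CPM in AdV-CRE-EGFP, and fell by 1.55 (log2; SE 0.14, edgeR adjusted p = 3.91e-10). With the control virus it was at 1.59, 1.74 and 1.74 CPM in OI-AdV-EGFP, against 18.9, 17.4 and 16.2 CPM in AdV-EGFP, and fell by 3.36 (SE 0.15, adjusted p = 2.23e-16). All induced libraries lay below the day-0 libraries of the same virus, without overlap.

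Chac1, which degrades glutathione in the cytosol, was at 8.82, 7.83 and 8.88 CPM in OI-AdV-CRE-EGFP, against 27.4, 24.3 and 24.2 CPM in AdV-CRE-EGFP, and fell by 1.57 (log2; SE 0.11, adjusted p = 5.52e-12). It was at 2.35, 2.5 and 1.36 CPM in OI-AdV-EGFP, against 13, 13.4 and 13.5 CPM in AdV-EGFP, and fell by 2.69 (SE 0.15, adjusted p = 3.38e-14). Chac1 was thus low in all induced libraries, and lowest in those with the control virus. Atf3, an early stress-induced repressor and activator of the same family as ATF4, was at 11, 11.8 and 12.2 CPM in OI-AdV-CRE-EGFP, against 13.6, 17.3 and 18 CPM in AdV-CRE-EGFP, a difference of -0.48 (SE 0.12, adjusted p = 0.00104) that stayed under 2-fold. It was at 2.35, 3.6 and 2.99 CPM in OI-AdV-EGFP, against 10.1, 9.19 and 8.89 CPM in AdV-EGFP, and fell by 1.65 (SE 0.16, adjusted p = 7.42e-10).

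Atf4 itself, read here as mRNA although its regulation is largely translational, was at 146, 133 and 149 CPM in OI-AdV-CRE-EGFP, against 199, 205 and 195 CPM in AdV-CRE-EGFP, a log2 fold change of -0.48 (SE 0.05, adjusted p = 7.16e-09). It was at 119.6, 104 and 109.7 CPM in OI-AdV-EGFP, against 222, 221 and 204 CPM in AdV-EGFP, a change of -0.96 (SE 0.05, adjusted p = 1.46e-14) just inside 2-fold. Every induced library lay below every day-0 library. Atf5, a close relative that drives the mitochondrial stress response, differed by -0.09 (SE 0.06, adjusted p = 0.159) with the Cre virus and by -0.79 (SE 0.06, adjusted p = 1.12e-11) with the control virus. Sesn2, a leucine sensor that inhibits mTORC1, changed by -0.47 and -0.76 (adjusted p = 2.54e-07 and 3.82e-11 with the Cre and the control virus), short of 2-fold in both.

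The remaining 3 regulators were Nupr1, Ddit4 and Ddit3. Nupr1, a small stress-inducible chromatin protein, was at 100.2, 107 and 99.3 CPM in OI-AdV-CRE-EGFP, against 39.6, 41.7 and 39 CPM in AdV-CRE-EGFP, and rose by 1.35 (log2; SE 0.06, adjusted p = 3.36e-16). With the control virus it was at 81.9, 73.2 and 75.8 CPM in OI-AdV-EGFP, against 41.4, 41.6 and 36.7 CPM in AdV-EGFP, a change of 0.95 (SE 0.06, adjusted p = 3.67e-13) that missed the 2-fold limit. Ddit4, also named REDD1, an mTORC1 inhibitor that glucocorticoids induce, differed by 0.09 (adjusted p = 0.249) with the Cre virus and 0.34 (adjusted p = 6.51e-05) with the control virus. Ddit3, which encodes CHOP, averaged 24.3 ± 1.33 CPM in OI-AdV-CRE-EGFP and 28.1 ± 1.51 CPM in AdV-CRE-EGFP (SD, n = 3 each; -0.20, adjusted p = 0.0136). It averaged 22.8 ± 0.708 CPM in OI-AdV-EGFP and 21.7 ± 0.182 CPM in AdV-EGFP (SD, n = 3 each), a difference of 0.07 (adjusted p = 0.388). Exons of Mbd6, Mars1 and the second Ddit3 row cover 66.5% of the Ddit3 exon bases and whether reads were counted by strand is not known here, so reads of Ddit3 and of those genes may not be separated.

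The 8 serine and one-carbon enzymes moved the same way. With the Cre virus 5 of them fell, and all 8 were lower by the adjusted p, with a median log2 fold change of -1.26. With the control virus 6 fell and again all 8 were lower by the adjusted p, with a median of -1.74. Of all genes 8.62% were called lower with the Cre virus and 10.8% with the control virus. By the adjusted p alone 35.3% and 36.5% of all genes were lower. Psat1, the aminotransferase of serine synthesis, was at 111, 97.8 and 100.4 CPM in OI-AdV-CRE-EGFP, against 282, 265 and 275 CPM in AdV-CRE-EGFP, and fell by 1.41 (SE 0.05, adjusted p = 1.63e-18). It was at 74, 71.5 and 78.7 CPM in OI-AdV-EGFP, against 298, 290.0 and 291 CPM in AdV-EGFP, and fell by 1.97 (SE 0.05, adjusted p = 2.04e-21). Neither pair of groups overlapped.

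The other enzymes of that pathway differed more in size than in direction. Phgdh, which catalyses the first step of serine synthesis, changed by -0.29 and -0.67 with the Cre and the control virus, and Psph, which catalyses the last, by -0.28 and -0.94, so the enzyme between them, Psat1, was the one of the 3 that passed 2-fold. The mitochondrial folate enzymes fell in both kinds of cell. Mthfd2, the dehydrogenase and cyclohydrolase, fell by 1.32 (SE 0.08, adjusted p = 1.08e-13) with the Cre virus, and fell by 2.15 (SE 0.08, adjusted p = 6.12e-18) with the control virus, where it was at 12.8, 10.8 and 13.8 CPM in OI-AdV-EGFP against 56.4, 51.8 and 57.2 CPM in AdV-EGFP. With the Cre and the control virus, the changes were -1.46 and -2.01 for Aldh1l2, -1.19 and -1.78 for Shmt2 and -1.37 and -1.70 for Mthfd1l, all called, with adjusted p between 1.73e-20 and 1.82e-14. Shmt1, the cytosolic counterpart of the mitochondrial serine hydroxymethyltransferase Shmt2, changed by -0.35 (SE 0.13, adjusted p = 0.02) and -1.02 (SE 0.12, adjusted p = 4.22e-08). Its call with the control virus sat on the 2-fold limit and was lost without OI-AdV-EGFP replicate 2 (-0.99) or replicate 3 (-0.95) and on the log2(FPKM + 1) scale (-0.83). Of the Shmt2 and Aldh1l2 exon bases, 17.7% and 14.1% overlap a gene on the opposite strand.

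The 7 enzymes of asparagine, glutamine, proline and cysteine did not move together. Glul, glutamine synthetase, a gene that glucocorticoids are known to induce, was at 518, 507 and 479 CPM in OI-AdV-CRE-EGFP, against 66.8, 70.4 and 62.5 CPM in AdV-CRE-EGFP, and rose by 2.91 (log2; SE 0.05, adjusted p = 9.95e-25). It was at 482, 509.7 and 517 CPM in OI-AdV-EGFP, against 60.6, 60.7 and 58.6 CPM in AdV-EGFP, and rose by 3.07 (SE 0.05, adjusted p = 2.64e-25). On the FPKM scale Glul had the highest mean of the members in both induced groups. Asns, asparagine synthetase, ran the opposite way, changing by -0.95 (SE 0.05, adjusted p = 3.87e-14) with the Cre virus, just inside 2-fold. It was at 41.9, 41.4 and 41.5 CPM in OI-AdV-EGFP, against 120.0, 117 and 123 CPM in AdV-EGFP, and fell by 1.53 (SE 0.05, adjusted p = 1.49e-18).

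The enzymes that degrade and make proline differed in direction. Prodh, which degrades proline, was at 3.5, 4.32 and 4.23 CPM in OI-AdV-CRE-EGFP, against 0.608, 0.593 and 0.45 CPM in AdV-CRE-EGFP, and rose by 2.85 (log2; SE 0.28, adjusted p = 1.71e-09). It was at 5.17, 5.93 and 4.51 CPM in OI-AdV-EGFP, against 0.258, 0.447 and 0.247 CPM in AdV-EGFP, and rose by 4.0 (SE 0.30, adjusted p = 8.2e-12). That was the largest change of any member, with day-0 levels under 1 CPM. Aldh18a1, which makes the proline precursor pyrroline-5-carboxylate from glutamate, changed by -0.53 (SE 0.05, adjusted p = 1.21e-10) and -0.98 (SE 0.04, adjusted p = 4.97e-16) with the Cre and the control virus. Pycr1, the reductase that completes proline, had values of 0.02 (adjusted p = 0.908) and -0.38 (adjusted p = 0.015).

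In the transsulfuration pathway, which turns homocysteine into cysteine, Cbs rose by 1.33 (SE 0.35, adjusted p = 0.00179) with the Cre virus and by 1.83 (SE 0.31, adjusted p = 1.26e-05) with the control virus. Its levels were low, at 2.47, 3.25 and 2.45 CPM in OI-AdV-EGFP against 0.452, 0.958 and 0.865 CPM in AdV-EGFP, and on the log2(FPKM + 1) scale, which compresses low genes, its changes of 0.79 and 0.59 stayed under 2-fold. Cth, the next enzyme, was not called, with values of -0.17 (adjusted p = 0.294) and -0.30 (adjusted p = 0.0401).

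Of the 10 amino acid transporters, 4 fell with induction in the Cre-virus cells and 5 in the control-virus cells, while 9 were lower by the adjusted p in each. Of all genes 8.62% and 10.8% were called lower, and 35.3% and 36.5% were lower by the adjusted p. Slc7a11, the cystine importer with the pair of promoter elements, had the largest change of the transporters. It was at 7.97, 8.2 and 10 CPM in OI-AdV-CRE-EGFP, against 90.4, 95.3 and 99.9 CPM in AdV-CRE-EGFP, and fell by 3.44 (log2; SE 0.11, adjusted p = 3.42e-19). It was at 5.82, 7.03 and 6.58 CPM in OI-AdV-EGFP, against 53.3, 75.5 and 67.3 CPM in AdV-EGFP, and fell by 3.33 (SE 0.11, adjusted p = 1.47e-18). Slc7a11 thus stood at 0.0918 of its day-0 level with the Cre virus and at 0.0992 with the control virus.

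Slc7a5, the leucine transporter LAT1, was at 22.3, 21.2 and 22.3 CPM in OI-AdV-CRE-EGFP, against 90.7, 96.2 and 96.7 CPM in AdV-CRE-EGFP, and fell by 2.11 (SE 0.06, adjusted p = 2.71e-20). With the control virus it was at 15.8, 15.9 and 14.9 CPM in OI-AdV-EGFP, against 116, 124 and 115 CPM in AdV-EGFP, and fell by 2.93 (SE 0.06, adjusted p = 4.06e-23). No induced library came near the day-0 levels. Slc3a2, the heavy chain that both SLC7A5 and SLC7A11 need at the membrane, changed far less, by -0.64 (adjusted p = 8.33e-13) and -0.61 (adjusted p = 1.36e-12) with the Cre and the control virus. Slc7a1, the cationic amino acid transporter CAT1, fell in both, with changes of -1.57 (SE 0.07, adjusted p = 1.12e-16) and -2.24 (SE 0.07, adjusted p = 9.78e-20). Slc7a3, its relative CAT3, also fell in both, with changes of -1.75 (SE 0.31, adjusted p = 1.82e-05) and -1.44 (SE 0.32, adjusted p = 0.000257), and stood between 1.6 and 3.65 CPM on day 0. Its changes were -0.77 and -0.60 on the log2(FPKM + 1) scale.

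The glutamine and neutral amino acid carriers were more varied. Slc38a1 (SNAT1) changed by -0.54 (log2; SE 0.06, adjusted p = 7.17e-09) with the Cre virus. With the control virus it fell, with 34.4, 35.7 and 34.5 CPM in OI-AdV-EGFP against 87.3, 90.6 and 90 CPM in AdV-EGFP (-1.35, SE 0.06, adjusted p = 1.85e-16). With the Cre and the control virus, Slc38a2 (SNAT2) changed by -0.30 and -0.43, Slc1a4 by -0.35 and -0.47 and Slc38a4 by -0.70 and -0.36, all with adjusted p under 0.05 and under 2-fold. Slc1a5, the glutamine exchanger ASCT2, was the transporter that was higher after induction, by 0.66 (SE 0.06, adjusted p = 5.18e-10) with the Cre virus and by 0.78 (SE 0.06, adjusted p = 6.01e-12) with the control virus, where it was at 108, 113 and 111 CPM in OI-AdV-EGFP against 62.1, 63.9 and 67.7 CPM in AdV-EGFP. Neither reached 2-fold.

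**Figure D2:**
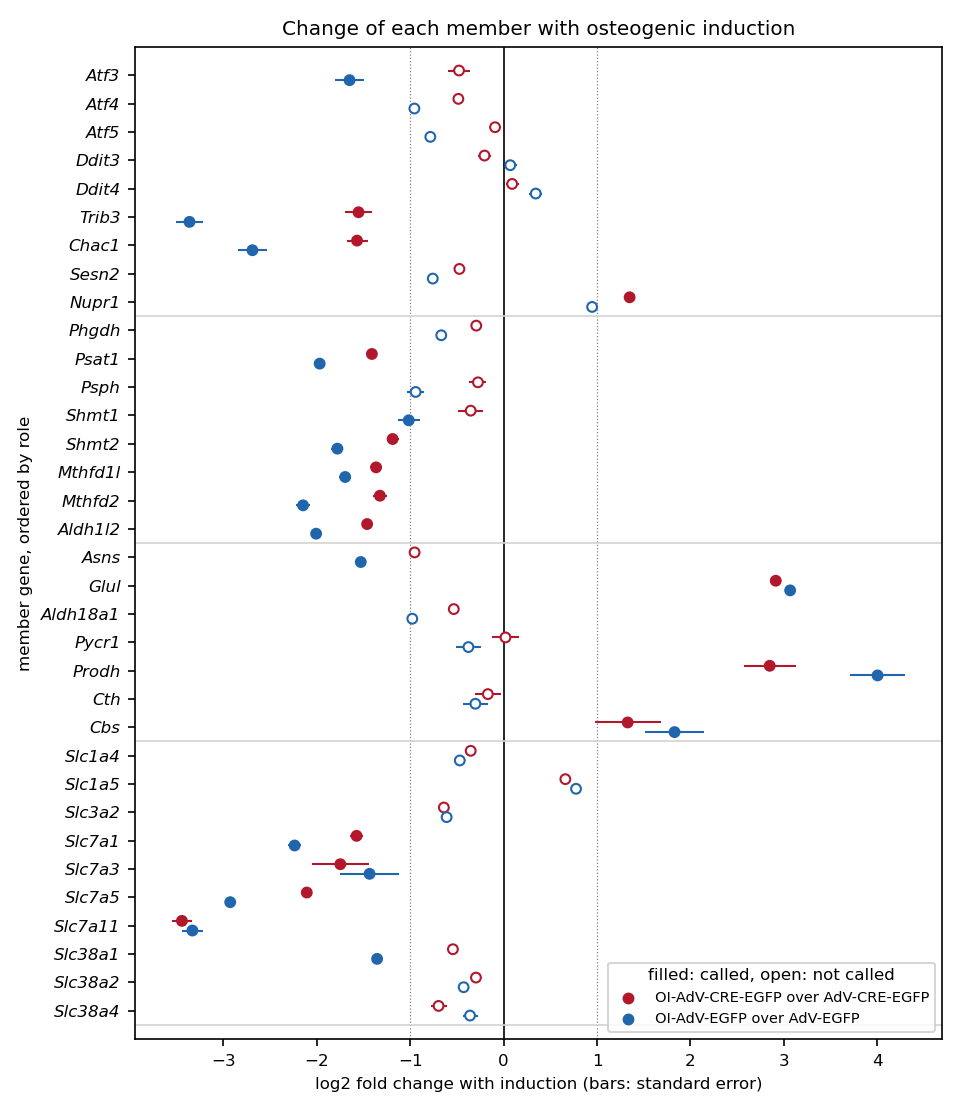
Log2 fold change of each member with osteogenic induction (x axis) in Cre-virus cells (red, OI-AdV-CRE-EGFP over AdV-CRE-EGFP) and control-virus cells (blue, OI-AdV-EGFP over AdV-EGFP), with bars of 1 standard error, filled points for called genes and dotted lines at 2-fold. Most points lie left of 0 and the blue point of a pair usually lies further left, as for Trib3 at -1.55 with the Cre virus against -3.36 with the control virus, while Glul, Prodh, Cbs and Nupr1 lie to the right.

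The Cre virus was then compared with the control virus among induced cells, OI-AdV-CRE-EGFP against OI-AdV-EGFP. Of the 34 members 3 rose, Chac1, Atf3 and Trib3, and 0 fell, where 2.46% of all genes were called higher and 2.61% lower. By the adjusted p alone 18 members were higher and 4 lower, beside 19.8% and 20.6% of all genes. The median member changed by 0.18 (log2) and the median gene by -0.01.

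Chac1 was at 8.82, 7.83 and 8.88 CPM in OI-AdV-CRE-EGFP, against 2.35, 2.5 and 1.36 CPM in OI-AdV-EGFP, and rose by 2.05 (SE 0.16, edgeR adjusted p = 2.07e-10). Atf3 was at 11, 11.8 and 12.2 CPM, against 2.35, 3.6 and 2.99 CPM in OI-AdV-EGFP, and rose by 1.97 (SE 0.15, adjusted p = 1.19e-10). Trib3 was at 3.62, 3.27 and 3.64 CPM, against 1.59, 1.74 and 1.74 CPM in OI-AdV-EGFP, and rose by 1.05 (SE 0.19, adjusted p = 6.19e-05). All Cre-virus libraries lay above all control-virus libraries for these 3 genes. The call of Trib3 is close to the limit, with 0.95 on the log2(FPKM + 0.1) scale and 0.56 on the log2(FPKM + 1) scale. Without OI-AdV-EGFP replicate 2, the library of its group lowest in osteoblast markers, the changes were 2.21 for Chac1, 2.12 for Atf3 and 1.07 for Trib3, and 17 members were higher and 3 lower by the adjusted p.

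The other members differed by less than 2-fold. Among those higher with the Cre virus by the adjusted p were Slc38a1 (0.64), Atf5 (0.58), Slc7a5 (0.50), Mthfd2 (0.49), Psat1 (0.46), Slc7a1 (0.46), Slc7a11 (0.43), Nupr1 (0.41), Atf4 (0.36) and Psph (0.36). Atf4 was at 146, 133 and 149 CPM in OI-AdV-CRE-EGFP, against 119.6, 104 and 109.7 CPM in OI-AdV-EGFP, and the groups did not overlap (SE 0.05, adjusted p = 4.84e-06). The 4 lower by the adjusted p were Cbs (-0.81, adjusted p = 0.0234), Slc1a5 (-0.58, adjusted p = 7.37e-09), Slc38a4 (-0.57, adjusted p = 9.18e-06) and Ddit4 (-0.39, adjusted p = 4.1e-05). Without OI-AdV-EGFP replicate 2, Cbs (-0.66, adjusted p = 0.12) and, among the higher, Mthfd1l (0.20, adjusted p = 0.0671) no longer passed. Cbs was also lost without OI-AdV-CRE-EGFP replicate 1 (-0.70, adjusted p = 0.0932) and on both FPKM scales (limma adjusted p = 0.324 and 0.418). Of the 8 serine and one-carbon enzymes 6 were higher by the adjusted p, beside 19.8% of all genes, with Aldh1l2 at 0.12 (adjusted p = 0.138) and Shmt1 at -0.15 (adjusted p = 0.395). Glul, at 518, 507 and 479 CPM in OI-AdV-CRE-EGFP against 482, 509.7 and 517 CPM in OI-AdV-EGFP, overlapped between the groups, with a log2 fold change of -0.00 (SE 0.04).

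Before induction, AdV-CRE-EGFP against AdV-EGFP, no member was called, 0 higher and 0 lower, where 2.60% of all genes were called higher and 0.556% lower. By the adjusted p alone 5 members were higher and 18 lower, beside 15.8% and 13.5% of all genes, and the median was -0.17 for the members and -0.01 for all genes. Cbs, at -0.30 (SE 0.40, adjusted p = 0.617), passed both limits in 1 alternative, log2(FPKM + 0.1), with -1.27 (limma adjusted p = 0.0333). The 5 higher were Chac1 (0.93), Atf3 (0.79), Slc7a11 (0.54), Ddit3 (0.37) and Glul (0.15). Chac1 was at 27.4, 24.3 and 24.2 CPM in AdV-CRE-EGFP, against 13, 13.4 and 13.5 CPM in AdV-EGFP, a non-overlapping difference just under 2-fold (SE 0.11, adjusted p = 2.46e-07). Slc7a11 was at 90.4, 95.3 and 99.9 CPM in AdV-CRE-EGFP, against 53.3, 75.5 and 67.3 CPM in AdV-EGFP (SE 0.08, adjusted p = 1.71e-05).

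Lower members on day 0 included Shmt1, at 9.49, 8.24 and 8.61 CPM in AdV-CRE-EGFP against 15.9, 15.1 and 15.3 CPM in AdV-EGFP (-0.81, SE 0.12, adjusted p = 1.01e-05). Trib3 was at 11.9, 9.69 and 9.38 CPM in AdV-CRE-EGFP, against 18.9, 17.4 and 16.2 CPM in AdV-EGFP (-0.76, SE 0.11, adjusted p = 1.28e-05). On day 0 Trib3 thus lay on the other side of the control from Chac1 and Atf3, and from its own position on day 4. Slc1a5 (-0.47), Cth (-0.47), Aldh1l2 (-0.43), Asns (-0.40), Pycr1 (-0.39), Shmt2 (-0.36), Mthfd2 (-0.33) and Slc7a5 (-0.32) were also lower. Atf4, at 199, 205 and 195 CPM in AdV-CRE-EGFP against 222, 221 and 204 CPM in AdV-EGFP, differed by -0.11 (SE 0.05, adjusted p = 0.105).

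**Figure D3:**
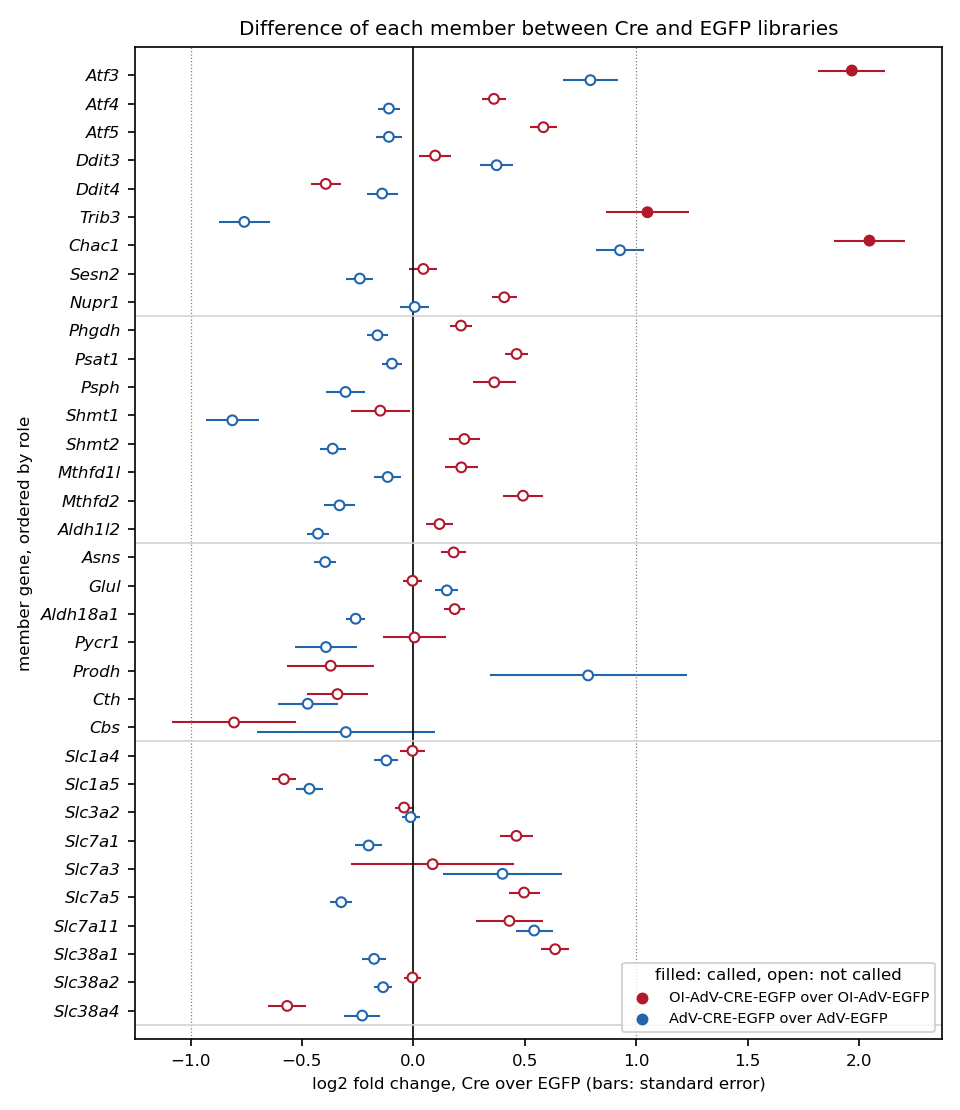
Log2 fold change of each member between Cre-virus and control-virus libraries (x axis), after induction (red) and before it (blue), with bars of 1 standard error, filled points for called genes and dotted lines at 2-fold. The 3 filled red points are Chac1 at 2.05, Atf3 at 1.97 and Trib3 at 1.05; no blue point is filled, and for most members the red point lies right of the blue.

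Markers of other cell types also differed between these groups, and their part in the members' values was not tested. The osteoblast markers (7 of 7 detected) summed to 39.1 to 43.5 CPM in OI-AdV-CRE-EGFP and 149.6 to 379 CPM in OI-AdV-EGFP, against 57.2 to 96.3 CPM in AdV-CRE-EGFP and 56.0 to 112.9 CPM in AdV-EGFP. With induction 4 of the 7 were called higher and 0 lower under the control virus, and 1 higher and 3 lower under the Cre virus. The skeletal muscle list (4 of 4 detected, of which 2 passed the filter on low counts) summed to 29.2 to 36.0 CPM in OI-AdV-CRE-EGFP and 12.4 to 16.1 CPM in OI-AdV-EGFP, against 109.6 to 118.5 CPM in AdV-CRE-EGFP and 69.5 to 74.0 CPM in AdV-EGFP. The sums hide a split, since with induction under the Cre virus 1 of the 2 was called higher and 1 lower. The endothelial list (4 of 4) summed to 32.7 to 35.2 CPM in OI-AdV-CRE-EGFP and 16.1 to 19.4 CPM in OI-AdV-EGFP, against 16.4 to 22.7 CPM in AdV-CRE-EGFP and 3.40 to 5.24 CPM in AdV-EGFP. Its genes did not move together: after induction 1 was called higher and 1 lower with the Cre virus. Before induction 2 were called higher and 0 lower. Chondrocyte markers summed to between 51.9 and 112.7 CPM over all libraries, with Matn1 at 0 in both day-0 groups, macrophage and blood markers to between 40.6 and 87.7 CPM, with Hbb-bs at 0 in all groups but OI-AdV-CRE-EGFP, and glial and epithelial markers to between 2.94 and 15 CPM. Of the 5 chondrocyte markers tested, 1 was called higher and 2 lower with induction under each virus.

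The difference between the viruses was compared across the 2 days with an interaction term, positive where the Cre-over-control ratio was larger on day 4 than on day 0, which is the same as a more positive induction change in the Cre-virus cells. The comparisons above share libraries, so this term is the test of their difference and not a further piece of evidence. By the adjusted p, 20 members were positive and 1 negative, where 10.7% of all genes were positive and 12.1% negative, and the median was 0.40 for the members and -0.01 for all genes (log2). All 8 serine and one-carbon enzymes were positive, from 0.33 for Mthfd1l to 0.82 for Mthfd2. So were 7 of the 9 stress regulators, 2 of the 7 other enzymes (Asns and Aldh18a1) and 3 of the 10 transporters (Slc7a5, Slc38a1 and Slc7a1).

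Trib3 had the largest term, 1.81 (SE 0.22, edgeR adjusted p = 8.32e-07), since the Cre-virus cells stood below the control-virus cells on day 0 and above them on day 4. Atf3 (1.17, SE 0.20, adjusted p = 8.94e-05) and Chac1 (1.12, SE 0.20, adjusted p = 0.000159) were higher with the Cre virus on both days, and more so on day 4. Slc7a5 (0.82, SE 0.09, adjusted p = 8.04e-08), Slc38a1 (0.81, SE 0.08, adjusted p = 5.73e-08) and Atf5 (0.69, SE 0.08, adjusted p = 7.89e-07) had the smallest adjusted p of the rest. For Slc7a5 the Cre-virus libraries were at 22.3, 21.2 and 22.3 CPM against 15.8, 15.9 and 14.9 CPM with the control virus on day 4, and at 90.7, 96.2 and 96.7 CPM against 116, 124 and 115 CPM on day 0. Its 2 groups were thus separate on both days and in opposite order.

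Other members of the same pathways had terms that did not pass. The term was -0.11 for Slc7a11 (SE 0.17, adjusted p = 0.706), -0.03 for Slc3a2 (SE 0.06, adjusted p = 0.773) and -0.11 for Slc1a5 (SE 0.08, adjusted p = 0.354). Prodh, at -1.16, had a large standard error of 0.48 (adjusted p = 0.0886). The negative member was Slc38a4 (-0.34, SE 0.12, adjusted p = 0.0416), and its call did not hold with RLE size factors, with total counts or in DESeq2 (adjusted p = 0.0545, 0.0516 and 0.0709).

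**Figure D4:**
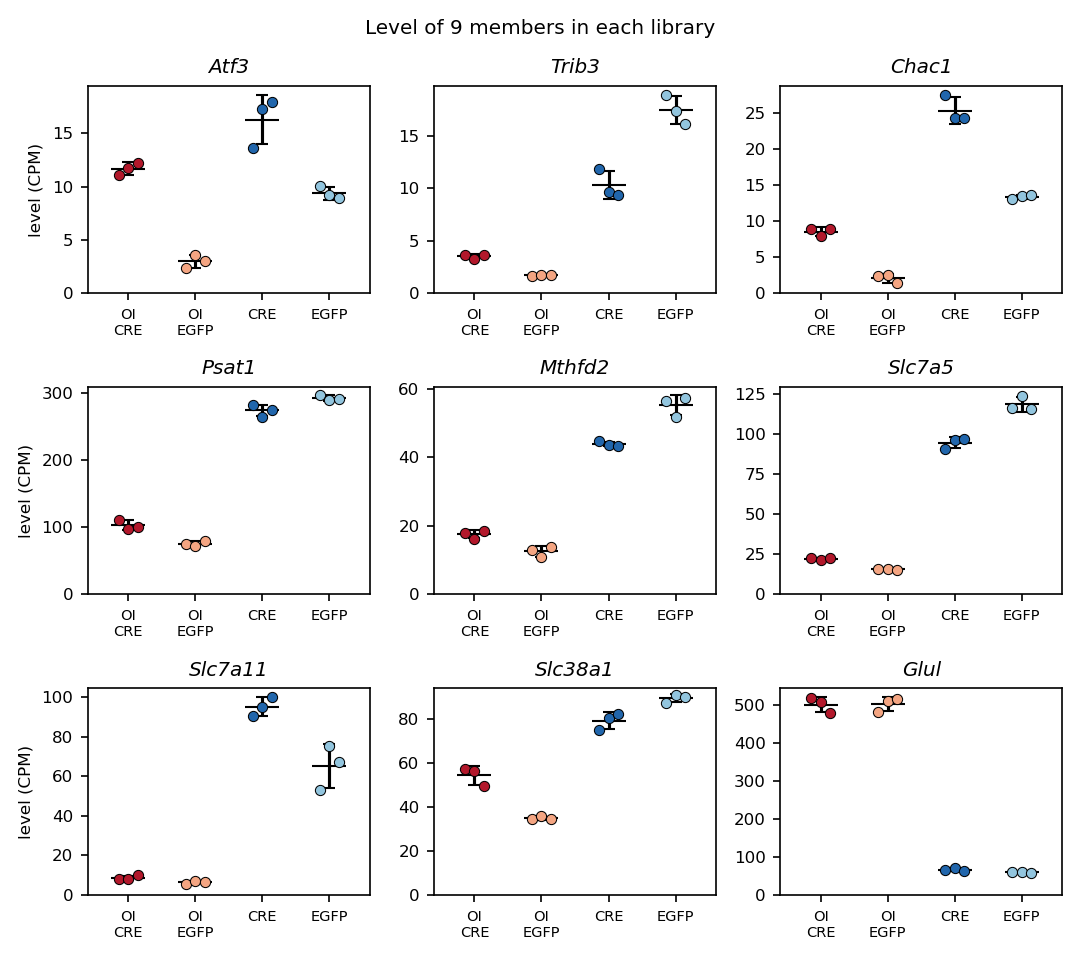
Level in CPM (y axis, from 0) of 9 members in each library (points), by group (red OI-AdV-CRE-EGFP, orange OI-AdV-EGFP, dark blue AdV-CRE-EGFP, light blue AdV-EGFP), with the mean and SD of 3 libraries. Atf3 and Chac1 sit above the control virus with Cre on both days, Trib3, Psat1, Mthfd2, Slc7a5 and Slc38a1 above it on day 4 and below it on day 0, and Glul at 479 to 518 CPM after induction with both viruses.

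Lists of genes around the members were counted the same way. These lists too were chosen with earlier results of these data known, so their counts are descriptions and no test. The 20 cytosolic aminoacyl-tRNA synthetases charge tRNAs, and many of them depend on ATF4. With induction under the control virus 18 of the 20 were lower by the adjusted p, beside 36.5% of all genes. Under the Cre virus 19 were lower, beside 35.3%. The median change was -0.61 with the control virus and -0.47 with the Cre virus. Of the 20, 4 fell under the control virus, beside 10.8% of all genes. These were Cars1 (-1.49), Vars1 (-1.23), Iars1 (-1.14) and Aars1 (-1.01), and Cars1 fell with the Cre virus too (-1.03). In induced cells 14 of the 20 were higher with the Cre virus by the adjusted p and 0 were lower. Of all genes 19.8% were higher and 20.6% lower. The synthetases were higher by at most 0.44, and 0 were called. The interaction was positive for 12 and negative for 0, beside 10.7% and 12.1% of all genes. Cars1 (0.46), Gars1 (0.43), Vars1 (0.40) and Aars1 (0.39) had the largest.

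Of 23 other tested genes known as ATF4-dependent, 3 are also synthetases. In control-virus cells 3 of the 23 fell with induction and 1 rose, beside 10.8% and 15.1% of all genes. The number that fell is near that background. By the adjusted p alone, though, 16 were lower and 4 higher, beside 36.5% and 39.7% of all genes. Their median change was -0.68 (log2), where that of all genes was 0.05. In the Cre-virus cells 3 fell and 0 rose, beside 8.62% and 12% of all genes. By the adjusted p alone 13 were lower and 4 higher there, beside 35.3% and 35.9%, with a median of -0.27. In the same list 12 had a positive and 4 a negative interaction, beside 10.7% and 12.1% of all genes. Slc6a9, the glycine transporter GLYT1, had changes of -1.30 with the Cre virus and -1.80 with the control virus, both called. Gdf15, a stress-induced cytokine, rose with the Cre virus on day 0, averaging 10.4 ± 1.91 CPM in AdV-CRE-EGFP and 3.36 ± 0.467 CPM in AdV-EGFP (SD, n = 3 each; log2 fold change 1.63, SE 0.18, adjusted p = 1.3e-07). After induction it averaged 2.36 ± 0.575 CPM in OI-AdV-CRE-EGFP and 2.22 ± 0.298 CPM in OI-AdV-EGFP (0.09, adjusted p = 0.8), so its interaction of -1.55 (SE 0.29, adjusted p = 0.000359) ran against that of most members. Ndrg1 also rose with the Cre virus on day 0 (1.38), and Bcat1, the cytosolic branched-chain aminotransferase, had an interaction of 0.78.

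Upstream of ATF4, 17 genes for eIF2 kinases, eIF2, its exchange factor and its phosphatases were counted, and 1 was called with induction. In control-virus cells 10.8% of all genes were called lower and 15.1% higher. By the adjusted p alone 9 of the 17 were lower there and 6 higher, beside 36.5% and 39.7% of all genes. In induced cells 9 were higher and 2 lower with the Cre virus by the adjusted p, beside 19.8% and 20.6%. Eif2ak4, the gene of GCN2, fell by 1.21 (SE 0.07, adjusted p = 2.06e-14) in the control-virus cells, where it averaged 18.7 ± 0.38 CPM in OI-AdV-EGFP and 43.0 ± 2.1 CPM in AdV-EGFP (SD, n = 3 each). With the Cre virus it changed by -0.79 (adjusted p = 7.39e-11). Its interaction of 0.42, with those of Eif2b2 (0.33) and Eif2s1 (0.25), made 3 of 17 positive, and 0 were negative. Of all genes 10.7% were positive and 12.1% negative.

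Of 28 tested enzymes of serine, glycine, proline, glutamine and folate metabolism that are no members, 6 rose and 4 fell with induction in control-virus cells, where 15.1% of all genes were called higher and 10.8% lower. Gldc, of the glycine cleavage system, rose by 3.89, averaging 18.6 ± 1.23 CPM in OI-AdV-EGFP and 1.24 ± 0.434 CPM in AdV-EGFP, and the cytosolic Aldh1l1 rose by 3.59 while its mitochondrial counterpart and member Aldh1l2 fell by 2.01. Of 21 other amino acid transporters 4 rose and 3 fell, near the same shares of all genes. Slc7a2, a cationic amino acid transporter like the members Slc7a1 and Slc7a3, rose by 1.48 with the Cre virus and 2.96 with the control virus, opposite to both.

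Of 21 genes of amino acid sensing by mTORC1, 2 rose with induction and 0 fell under either virus, Sesn1 and Deptor. Of all genes, 12% rose and 8.62% fell with the Cre virus, and 15.1% and 10.8% with the control virus. The interaction was positive for 1 of the 21 and negative for 4, beside 10.7% and 12.1% of all genes. Sesn1, the relative of the member Sesn2 that p53 and FOXO factors are known to induce, averaged 50.2 ± 1.64 CPM in OI-AdV-CRE-EGFP and 110.5 ± 3.4 CPM in OI-AdV-EGFP (SD, n = 3 each), a fall of 1.14 (SE 0.06, adjusted p = 2.78e-14) with the Cre virus. Its rise with induction was 1.70 with the Cre virus and 3.03 with the control virus, where Sesn2 changed by -0.47 and -0.76. Rragb also fell with the Cre virus in induced cells (-1.01, SE 0.33, edgeR adjusted p = 0.0166), just past the 2-fold limit. Its level was low, averaging 0.97 CPM in OI-AdV-CRE-EGFP and 1.96 CPM in OI-AdV-EGFP. With Sesn1 and Rragb, 2 of the 21 were called lower and 0 higher, beside 2.61% and 2.46% of all genes. On day 0 Fnip2 rose with the Cre virus (1.32), which made 1 of the 21 called higher and 0 lower, beside 2.60% and 0.556%.

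**Figure D5:**
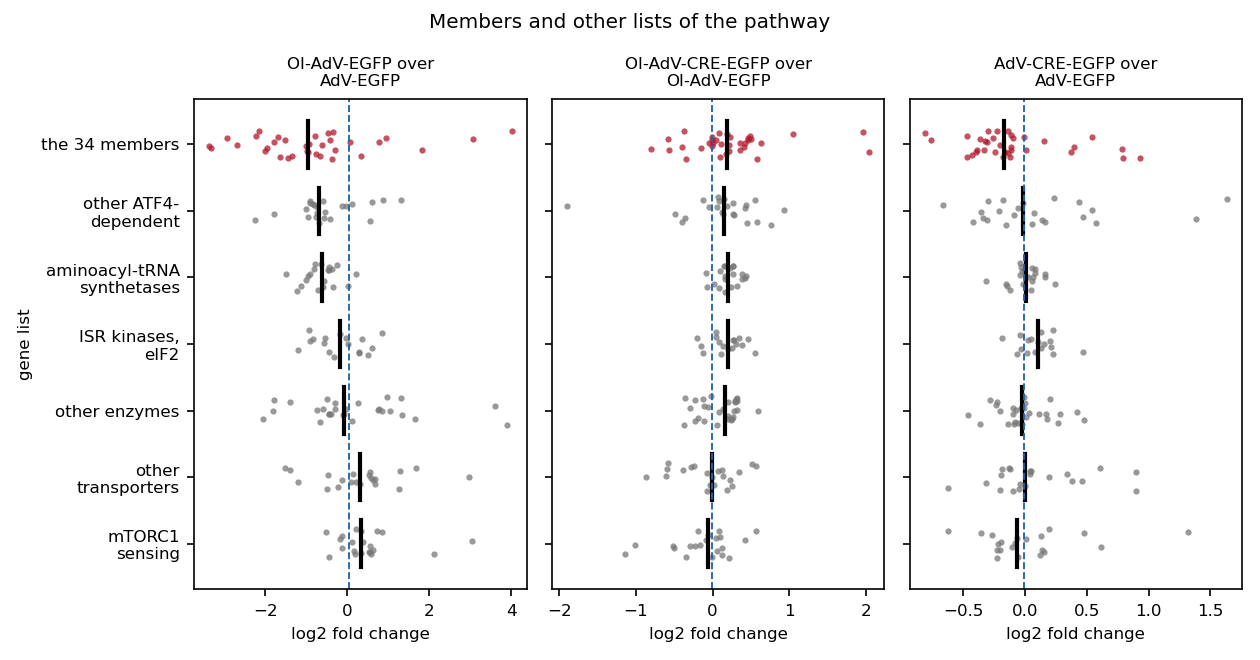
Log2 fold change (x axis) of the 34 members (red points) and of 6 other gene lists (grey points) in 3 comparisons, with each list's median (black bar) and the median of all 13670 genes tested (dashed line). With induction in control-virus cells the median is -0.95 for the members and -0.61 for the aminoacyl-tRNA synthetases, and in induced cells with the Cre virus against the control virus it is 0.18 and 0.20.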

How the data were processed

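Libraries were made from total RNA with NEBNext Ultra II. Per the study's methods and the labels, the authors trimmed reads with Cutadapt 1.15, aligned them with HISAT2 2.0.5 to GRCm39 and counted them per gene with HTSeq 0.9.1. The deposited table holds estimated counts, of which between 1646 and 1844 genes per library were not whole numbers, and FPKM values that the authors scaled for gene length and depth; whether strand was used is not stated in those sources. Columns of the authors' own comparisons were not used, and 0 columns of other samples were left out.

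Estimated counts were rounded and fitted in R 4.3.3 with edgeR 4.0.16 (filterByExpr, TMM, quasi-likelihood F test on 4 group means over all 12 libraries; common biological coefficient of variation 0.0472), with Benjamini-Hochberg adjustment over all genes tested. A call needed an adjusted p under 0.05 and a log2 fold change of 1 or more in size; for interactions the adjusted p alone counted. CPM values are TMM-scaled. The fit was tested on simulated data. Alternatives were RLE size factors, total counts, no filter, DESeq2 1.42.0, a replicate block, limma 3.58.1 on log2 of the deposited FPKM plus 1 or 0.1, and each library left out in turn. Libraries of a group differed by more than sampling noise (chi-square per gene between 2.16 and 5.07), so none was counted as a duplicate.

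All members are named; of each other list up to 4 called genes per comparison with the largest change are eligible. Of 177 list entries 157 matched by symbol and 20 by gene ID. The members and lists were chosen with earlier results of these data known. Promoter windows come from RefSeq (GRCm38.p6 table) and were placed on GRCm39 by exact match, 33 of 33 windows at 1 place each; no window was at hand for Slc7a5, Cth, Slc38a1, Aldh1l2, Slc7a3 and Slc1a5. Gene overlaps were read from GENCODE vM39 on GRCm39.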

Additional observations from a re-analysis of the deposited data

Results flagged for a closer look

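For 21 members the Cre-over-control difference changed between day 0 and day 4 by the interaction test (edgeR, adjusted p under 0.05 over all 13670 genes). The log2 interaction was 1.17 for Atf3, 0.47 for Atf4, 0.69 for Atf5, 1.81 for Trib3, 1.12 for Chac1, 0.29 for Sesn2 and 0.40 for Nupr1 among the stress regulators. It was 0.37 for Phgdh, 0.56 for Psat1, 0.67 for Psph, 0.66 for Shmt1, 0.59 for Shmt2, 0.33 for Mthfd1l, 0.82 for Mthfd2 and 0.55 for Aldh1l2 among the serine and one-carbon enzymes. It was 0.58 for Asns and 0.44 for Aldh18a1, and among the transporters 0.66 for Slc7a1, 0.82 for Slc7a5, 0.81 for Slc38a1 and -0.34 for Slc38a4. With 3 libraries per group, single libraries were not tested for standing apart from their group.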

How the results depend on the processing

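Over 19 alternatives, 12 of which left out a library, no value of a member that passed its test changed direction. The sign changed in 62 cases where neither value passed. The count of members with a negative interaction, 1 (Slc38a4), was 0 with RLE size factors, with total counts and in DESeq2, and 2 with the replicate block, where Ddit4 joined (adjusted p = 0.0388). With each library left out in turn, the members called lower and higher with induction numbered 11 to 11 and 4 to 4 with the Cre virus, and 14 to 17 and 3 to 3 with the control virus. By the adjusted p alone they numbered 23 to 25 and 5 to 5, and 25 to 27 and 6 to 6. Between viruses 3 to 3 were called higher and 0 to 0 lower after induction (16 to 18 and 3 to 5 by the adjusted p), and 0 to 0 either way before it (4 to 5 higher and 16 to 18 lower). Positive interactions numbered 19 to 21 and negative ones 0 to 2. The negative call of Slc38a4 was lost without OI-AdV-CRE-EGFP replicate 2 or 3, OI-AdV-EGFP 1 or 3, AdV-CRE-EGFP 1 or 3, or AdV-EGFP 2 or 3 (adjusted p 0.0546 to 0.204), and a library left out also ended the interaction calls of Sesn2 (OI-AdV-CRE-EGFP 3, 0.0616; AdV-CRE-EGFP 2, 0.0664) and Mthfd1l (OI-AdV-CRE-EGFP 2, 0.0574). Shmt1 lost its interaction on both FPKM scales (adjusted p = 0.0838 and 0.116), and Sesn2 on log2(FPKM + 0.1) (0.0528). Atf4, Psph and Aldh18a1, near 2-fold with induction in control-virus cells, passed it in some settings (down to -1.01, -1.03 and -1.01). Same-numbered libraries of different groups did not deviate together (correlations -0.0515 to 0.0371, 2 of 12 libraries closest to their own number). This gave no sign of pairing by number but cannot show that equal numbers mark unrelated cultures. Apart from that of Ddit4, the replicate block changed no member's call. Prodh, Cbs and Slc7a3, at a few CPM, had the largest standard errors of the members (up to 0.48, 0.49 and 0.45, for the interaction). On log2(FPKM + 0.1), Cbs passed 2-fold between viruses on day 0 (-1.27, adjusted p = 0.0333). RLE size factors, total counts and log2(FPKM + 1) each moved the median of all genes by less than 0.1.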
